A study of Mus musculus with 20 samples.

Results

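The genes described here are 34 cell cycle genes of mouse skin, 9 of them active in S phase and 25 in mitosis, out of 22180 genes measured. They were picked by name, as genes of DNA replication or cell division, with earlier results of these data known. Each gene is represented by the array feature that carries its symbol alone and that had the highest mean over all 20 arrays. All 34 were measured and entered the tests, with no filter on low values. The S-phase genes were Mcm2, Mcm3, Mcm5, Mcm6, Pcna, Rrm1, Rrm2, Tyms and E2f1. The mitotic genes were Mki67, Top2a, Ccnb2, Cdk1, Ccna2, Bub1, Bub1b, Aurka, Aurkb, Plk1, Birc5, Cenpe, Cenpf, Kif11, Kif20a, Kif23, Nusap1, Tpx2, Ube2c, Cdc20, Foxm1, Ttk, Melk, Hmmr and Prc1.

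RNA came from the abdominal skin of 20 C57/B6 mice, 9 weeks old, with 1 array per mouse and 5 mice in each of 4 groups. CD-vehicle and CD-IMQ mice ate control chow (CD), and HFD-vehicle and HFD-IMQ mice ate a high fat diet (HFD) whose duration is not given in the sources used here. The abdomen was shaved in every group, the controls included, and received either vehicle or 62.5 mg of 5% imiquimod cream (IMQ, sold as Aldara) each day for 5 days, and the skin was taken 24 h after that. Imiquimod activates Toll-like receptor 7, and its repeated use on mouse skin is a common model of psoriasis-like inflammation. The design asks how the cream changes the skin on each diet and how the diet changes it with and without the cream.

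Skin renews itself from the basal layer of the epidermis, where keratinocytes divide, and from the matrix of the growing hair follicle, one of the most rapidly dividing tissues of the body. A dividing cell copies its DNA in S phase. The MCM proteins unwind the DNA, PCNA clamps the polymerase to it, ribonucleotide reductase (RRM1 and RRM2) and thymidylate synthase (TYMS) make the building blocks, and E2F1 is a transcription factor that switches on such genes. Then CDK1 with cyclins A and B drives the cell into mitosis, Aurora and Polo-like kinases build the spindle, the checkpoint kinases BUB1, BUB1B and TTK hold the chromosomes until all are attached, and the anaphase-promoting complex with CDC20 and UBE2C destroys the cyclins. FOXM1 is a transcription factor of the mitotic genes. Epidermal thickening with more dividing keratinocytes is a known feature of psoriatic skin.

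S-phase and mitotic genes are switched on in part by different promoter elements. The promoter windows of these genes differed in some of the motifs searched and shared others. The windows are those of RefSeq on GRCm38.p6, from 250 bases before to 50 after each gene start, and each motif was searched on both strands. The E2F motif was the letters TTCCCGC or the letters TTGGCGC, and also the letters TTCGCGC or the letters TTGCCGC, matches of which can overlap each other. The CHR, the cell cycle genes homology region that the DREAM and MuvB complexes bind, was TTTGAA or TTCGAA, and the CCAAT box, bound by NF-Y, was CCAAT. All 9 S-phase genes had a window, and 5 of them (55.6%) held an E2F motif, 1 (11.1%) a CHR and 7 (77.8%) a CCAAT box. Of the 25 mitotic genes 20 had a window, Aurkb, Ccna2, Foxm1, Kif20a and Tpx2 being the others. Of these 20, 3 (15.0%) held an E2F motif, 16 (80.0%) a CHR and 17 (85.0%) a CCAAT box, and 16 (80.0%) held both of the last. Over all 27025 genes of the RefSeq table the shares were 10.9% for E2F, 21.7% for CHR, 41.1% for CCAAT and 8.61% for CHR with CCAAT. A match is a run of letters and does not show that a factor binds there.

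The MCM genes Mcm5 and Mcm6 are printed as examples of the S-phase promoters that held an E2F motif, which E2f1, Mcm2, Pcna and Tyms did not. Capitals mark E2F motifs and CCAAT boxes on either strand, with ATTGG as the reverse of CCAAT.
Mcm5 (chr8:75109335-75109529, plus strand): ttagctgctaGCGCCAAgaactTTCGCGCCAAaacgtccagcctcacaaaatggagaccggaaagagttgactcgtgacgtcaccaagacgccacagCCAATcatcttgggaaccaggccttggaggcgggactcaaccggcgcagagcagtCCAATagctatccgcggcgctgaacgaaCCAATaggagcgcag
Mcm6 (chr1:128359665-128359824, minus strand): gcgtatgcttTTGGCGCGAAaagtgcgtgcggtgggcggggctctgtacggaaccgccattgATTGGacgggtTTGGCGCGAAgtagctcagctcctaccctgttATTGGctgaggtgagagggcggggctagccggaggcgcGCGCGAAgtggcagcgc
Mcm5 held 3 E2F matches, which began at positions −164, −152 and −149 from its start, and Mcm6 held 5.

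The mitotic promoters printed next are examples of genes that passed a test described further on and that hold a CHR and a CCAAT box. Capitals mark both kinds of motif, with TTCAAA as the reverse of TTTGAA.
Ccnb2 (chr9:70421535-70421731, minus strand): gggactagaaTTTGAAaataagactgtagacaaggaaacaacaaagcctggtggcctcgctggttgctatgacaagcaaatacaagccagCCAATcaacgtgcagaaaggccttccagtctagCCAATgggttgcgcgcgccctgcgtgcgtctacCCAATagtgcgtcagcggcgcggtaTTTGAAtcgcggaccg
Plk1 (chr7:122159411-122159480, plus strand): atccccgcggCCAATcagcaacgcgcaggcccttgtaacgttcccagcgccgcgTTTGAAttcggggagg
Aurka (chr2:172370523-172370631, minus strand): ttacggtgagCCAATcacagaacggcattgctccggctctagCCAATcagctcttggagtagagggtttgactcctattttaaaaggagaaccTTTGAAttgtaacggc
Cdc20 (chr4:118437337-118437406, minus strand): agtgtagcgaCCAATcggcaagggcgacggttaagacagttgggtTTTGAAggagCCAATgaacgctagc
Ube2c (chr2:164769691-164769915, plus strand): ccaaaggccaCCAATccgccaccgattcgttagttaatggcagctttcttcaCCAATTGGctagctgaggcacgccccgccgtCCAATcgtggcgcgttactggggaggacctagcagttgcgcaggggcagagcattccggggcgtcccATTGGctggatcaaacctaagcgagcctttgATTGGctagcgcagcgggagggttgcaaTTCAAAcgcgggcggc
Cenpf (chr1:189688069-189688228, minus strand): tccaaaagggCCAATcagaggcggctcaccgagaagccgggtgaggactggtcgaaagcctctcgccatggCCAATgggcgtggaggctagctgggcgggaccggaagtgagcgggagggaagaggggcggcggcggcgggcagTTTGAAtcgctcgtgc
The CHR began at position 4 from the gene start in Ccnb2 (with another at −167), 30 in Plk1, 32 in Aurka, −18 in Cdc20, −29 in Ube2c and 2 in Cenpf. Of the other genes that passed and had a window, Bub1b held 2 CHRs and 1 CCAAT box and is not printed, and Birc5 had none of the 3 motifs.

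Each array gave log2 values for 41345 features, and the median of an array ranged from 2.86 to 3.04. Values near background are here those whose group mean did not exceed 2.94, the mean of these medians, which held for Birc5 in both vehicle groups and for Hmmr in CD-vehicle mice. The arrays of CD-vehicle mouse 3 and HFD-vehicle mouse 3 stood apart. CD-vehicle 3 had the lowest value of its group for 22 of the 25 mitotic and 8 of the 9 S-phase genes, and its mean over the mitotic genes was 3.75 where the other 4 mice of the group had 4.60, 4.63, 4.28 and 4.27. HFD-vehicle 3 had the highest level of its group for 16 genes of the growing hair follicle, with a mean log2 value of 8.12 against a group median of 6.14. Where the counts of called genes among the 34 change without either array, the change is given beside them. Skin was measured as a bulk tissue, so fewer dividing cells and less RNA per dividing cell cannot be told apart. Markers of skin were present, among them 8 of the 9 listed basal keratinocyte genes (mean log2 values 5.56 to 6.55 over the 20 arrays). The basal keratin gene Krt5 had no feature that carries its symbol alone and was not measured.

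**Figure D1:**
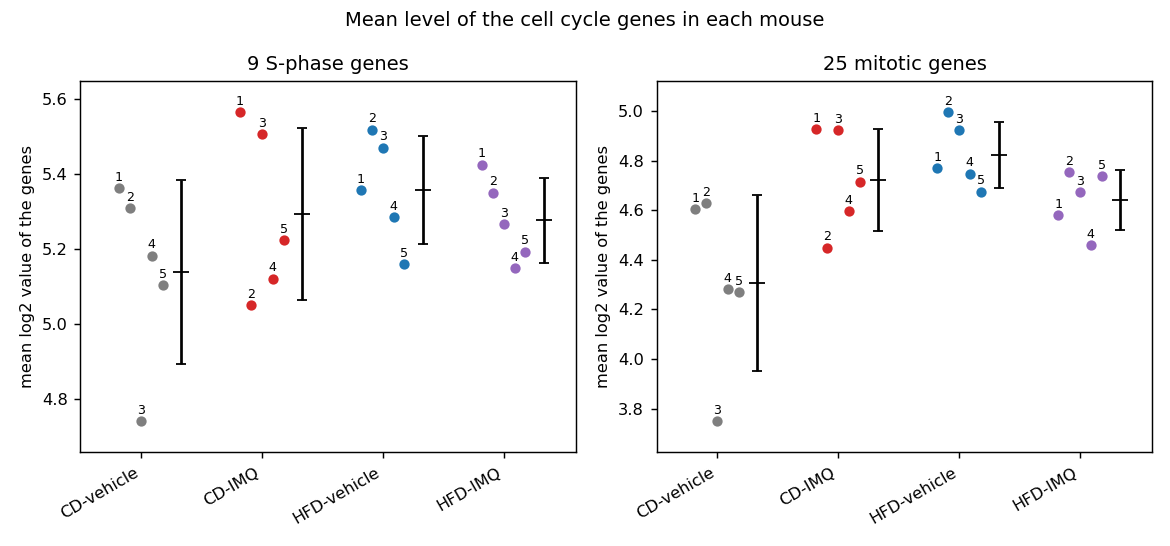
Mean log2 value of the 9 S-phase genes (left) and of the 25 mitotic genes (right) in each mouse; points are mice with their replicate number, and the bar beside them is the group mean with 1 SD (5 mice per group). CD-vehicle 3 lies lowest in both panels, at 4.74 and 3.75, and the mitotic mean is 4.31 in CD-vehicle, 4.72 in CD-IMQ, 4.82 in HFD-vehicle and 4.64 in HFD-IMQ mice.

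None of the 9 S-phase genes passed the test in any of the 6 comparisons made. Their mean log2 value was 5.14 ± 0.25 (SD, n = 5) in CD-vehicle, 5.29 ± 0.23 in CD-IMQ, 5.36 ± 0.14 in HFD-vehicle and 5.28 ± 0.11 in HFD-IMQ mice, so the other groups lay within 1 SD of the CD-vehicle mean. Each comparison was fitted with limma over all 22180 genes of the 20 arrays, and a gene passed, or was called, where its p after Benjamini-Hochberg adjustment was below 0.05. With imiquimod in CD-fed mice 0 of 9 were called, beside 10.9% of all genes, and 0 had an unadjusted p below 0.05, where 23.6% of all genes had one. Their median log2 difference was 0.19, against 0.02 for all genes, and 7 of 9 were above 0, beside 53.0% of all genes. With imiquimod in HFD-fed mice the same counts were 0 and 0, beside 5.89% and 16.7% of all genes. The median of the 9 was −0.12, and 3 of 9 were above 0, beside 49.8% of all genes. The high fat diet in vehicle-treated skin gave 0 calls, beside 2.18% of all genes. In that comparison 3 of 9 genes (33.3%) had an unadjusted p below 0.05, Mcm2, Mcm5 and Rrm1, beside 14.7% of all genes. The median of the 9 was 0.22, with 7 above 0, beside 48.2% of all genes. In imiquimod-treated skin the diet gave 0 calls and 0 genes at an unadjusted p below 0.05, beside 0.0% and 10.3% of all genes, with a median of −0.03. With only 9 genes, 0 calls is near the background in each of these comparisons.

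Rrm1, the large subunit of ribonucleotide reductase, had the largest diet difference of the S-phase genes in vehicle-treated skin. It measured 5.97, 6.15, 5.04, 5.93 and 5.86 in CD-vehicle mice 1 to 5 and 6.43, 6.50, 6.41, 6.30 and 6.04 in HFD-vehicle mice 1 to 5. The third CD-vehicle mouse was far below its group, and the remaining values of the groups overlapped. The log2 difference was 0.55 ± 0.17 (SE), which did not pass (limma, adjusted p = 0.087). Mcm5, a subunit of the replicative helicase, measured 5.46, 5.00, 4.06, 4.85 and 4.60 in CD-vehicle and 5.47, 4.54, 5.66, 5.17 and 5.08 in CD-IMQ mice. Both groups spanned more than 1 log2 unit and overlapped, and the difference of 0.39 ± 0.21 had a limma adjusted p of 0.277, the largest positive difference of the 9 genes in that comparison. Pcna, the sliding clamp and the S-phase feature with the highest mean log2 value, was 7.49, 7.65, 7.18, 7.49 and 7.37 in CD-vehicle mice and 7.44, 7.19, 7.57, 7.13 and 7.14 in CD-IMQ mice. Its difference was −0.14 ± 0.11, the lowest of the 9, with groups that overlapped (limma, adjusted p = 0.475). E2f1 differed by 0.19 ± 0.14 with imiquimod on control chow and by 0.15 ± 0.14 on high fat diet, neither of which passed (limma, adjusted p 0.445 and 0.678).

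Imiquimod raised mitotic genes in mice on control chow. Of the 25, 7 were called higher (28%) and 0 lower, where 3.91% of all genes were called higher and 7.02% lower. The 7 were Ccnb2, Birc5, Plk1, Ube2c, Aurka, Cdc20 and Bub1b, whose fold changes ran from 1.40 to 1.93. At an unadjusted p below 0.05 there were 14 (56%), beside 23.6% of all genes. Of the 25 differences 24 were above 0, beside 53.0% of all genes, with a median log2 difference of 0.39 against 0.02 for all genes. Over all genes 868 were called higher and 1556 lower, a split that moved to 1108 and 1301 after quantile normalization of the arrays. The same 5 CD-vehicle mice served here and in the diet comparison of vehicle-treated skin described further on.

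Ccnb2 encodes cyclin B2, a partner of CDK1 at entry into mitosis. It measured 4.91, 5.00, 3.83, 4.65 and 4.48 in CD-vehicle mice 1 to 5 and 5.72, 5.23, 5.92, 5.30 and 5.45 in CD-IMQ mice 1 to 5. Every CD-IMQ mouse was above every CD-vehicle mouse. The difference was 0.95 ± 0.19 (SE) on the log2 scale, or 1.93-fold (limma, adjusted p = 0.00229). Plk1, the Polo-like kinase of spindle assembly and mitotic exit, measured 4.25, 4.23, 3.53, 3.75 and 3.75 in CD-vehicle and 5.01, 4.36, 4.91, 4.73 and 4.48 in CD-IMQ mice. Its groups did not overlap either, and the difference of 0.80 ± 0.15 was 1.74-fold (limma, adjusted p = 0.0012). Birc5, or survivin, a subunit of the chromosomal passenger complex, measured 2.86, 2.48, 2.03, 2.23 and 2.49 in CD-vehicle and 3.47, 2.89, 3.90, 2.96 and 3.47 in CD-IMQ mice. The groups were separate, by 0.92 ± 0.16 or 1.89-fold (limma, adjusted p = 0.000503), but the CD-vehicle values lie near background, so the size of this change is uncertain.

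Aurka, the Aurora kinase of the spindle poles, measured 4.17, 4.32, 3.93, 3.75 and 4.04 in CD-vehicle and 4.72, 4.24, 4.69, 4.96 and 4.89 in CD-IMQ mice. CD-IMQ mouse 2 was below CD-vehicle mouse 2, and the other CD-IMQ mice were above all controls. The difference was 0.66 ± 0.13, or 1.58-fold (limma, adjusted p = 0.00231). Cdc20, which activates the anaphase-promoting complex, measured 4.93, 4.84, 4.55, 4.68 and 4.57 in CD-vehicle and 5.65, 4.76, 5.31, 5.23 and 5.50 in CD-IMQ mice. Again only CD-IMQ mouse 2 fell within the controls, and the difference was 0.58 ± 0.14 or 1.49-fold (limma, adjusted p = 0.00952).

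Ube2c, the ubiquitin-conjugating enzyme of the same complex, measured 4.29, 4.36, 3.37, 4.16 and 4.35 in CD-vehicle and 4.93, 4.49, 5.13, 4.44 and 5.04 in CD-IMQ mice. The groups did not overlap, and the control group held 1 far lower value, that of mouse 3. The difference was 0.70 ± 0.19, or 1.62-fold (limma, adjusted p = 0.0184), and it did not pass if 1 of 3 arrays was left out, CD-vehicle 3 (then 0.52, adjusted p = 0.0588), CD-IMQ 3 (0.62, 0.0553) or CD-IMQ 5 (0.64, 0.0546). Bub1b, the checkpoint kinase BubR1, measured 4.41, 4.42, 3.52, 3.94 and 3.87 in CD-vehicle and 4.64, 4.30, 4.60, 4.34 and 4.73 in CD-IMQ mice, with overlap. It differed by 0.49 ± 0.15 or 1.40-fold (limma, adjusted p = 0.0384), a call lost in 6 of 20 fits that left out 1 array. Its adjusted p was then 0.124 if CD-vehicle 3 was left out (a difference of 0.36), 0.0767 for CD-vehicle 4, 0.0929 for CD-vehicle 5, 0.0749 for CD-IMQ 1, 0.0778 for CD-IMQ 3 and 0.103 for CD-IMQ 5.

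Without CD-vehicle 3 the count of called mitotic genes was 5 of 25 in place of 7, namely Ccnb2, Aurka, Plk1, Birc5 and Cdc20, and the median difference was 0.27. The differences of Bub1, Cenpf, Kif11, Mki67, Top2a and Ttk were then below 0, from −0.12 (Cenpf) to −0.04 (Ttk), and those of the other mitotic genes above 0. Ccnb2 was then 0.76 ± 0.17 higher (limma, adjusted p = 0.00694), and Plk1 0.70 ± 0.15 (0.00498). The 18 mitotic genes that did not pass had differences from −0.01 (Cenpf) to 0.66 (Cdk1), the latter with a limma adjusted p of 0.0533. Mki67, the gene of the Ki-67 proliferation antigen and the mitotic feature with the highest mean log2 value, measured 7.53, 7.12, 5.97, 6.92 and 6.72 in CD-vehicle and 7.44, 6.62, 7.20, 6.95 and 6.89 in CD-IMQ mice. All CD-IMQ values lay inside the range of the CD-vehicle values. The difference was 0.17 ± 0.22 (limma, adjusted p = 0.701), and it was −0.05 without CD-vehicle 3.

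**Figure D2:**
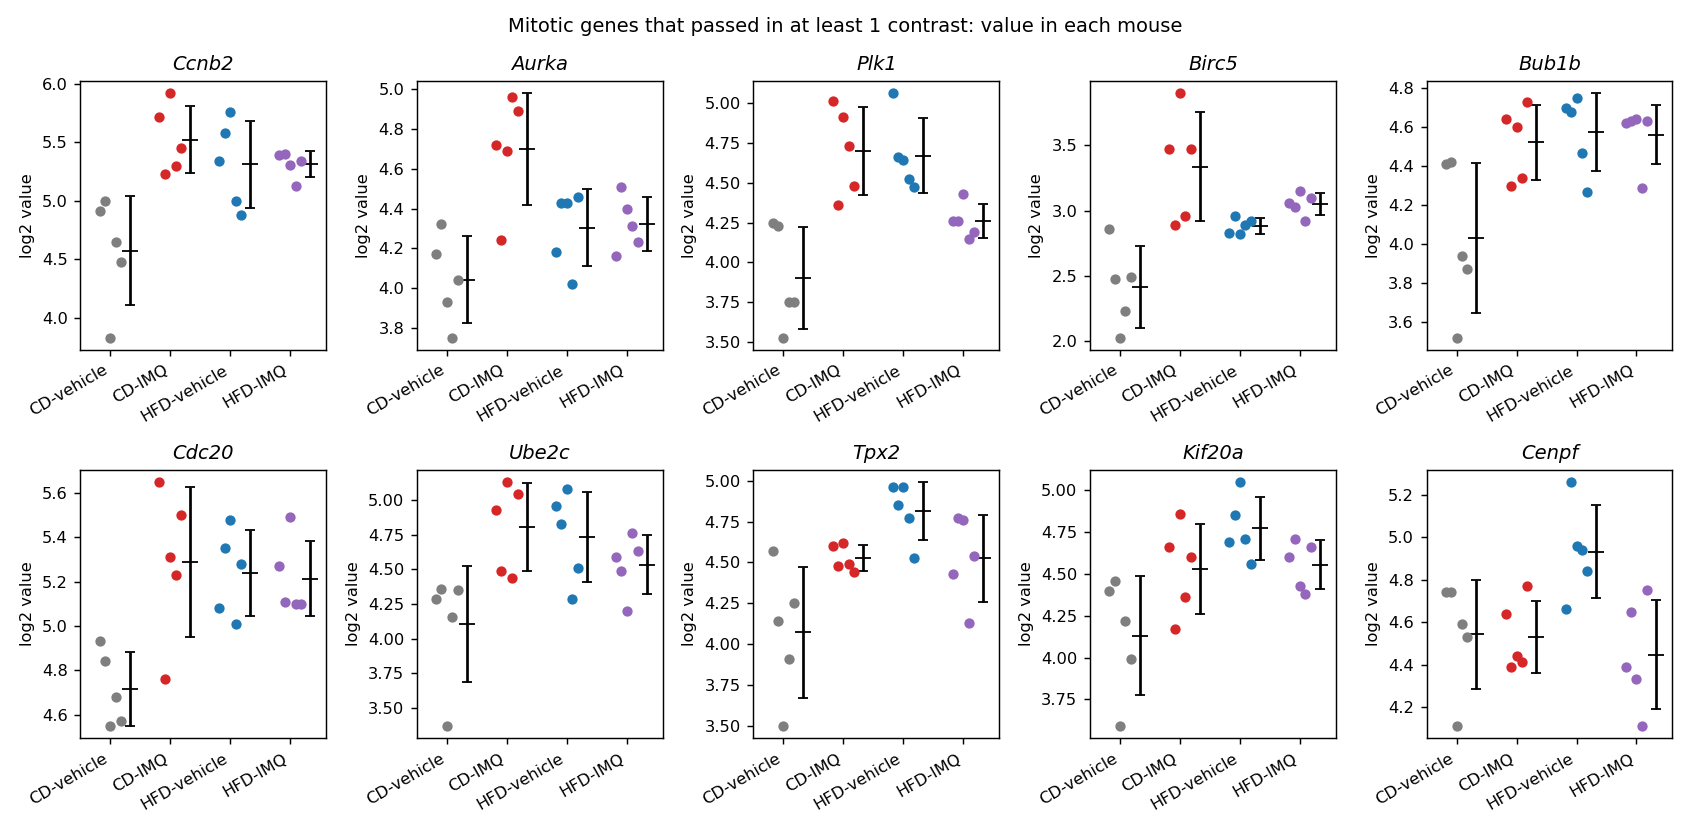
Log2 value in each mouse (points) for the 10 mitotic genes that passed in at least 1 comparison, with the group mean and 1 SD beside the points (5 mice per group). Ccnb2, Plk1, Birc5 and Ube2c have CD-IMQ values wholly above the CD-vehicle values, while Cenpf has its highest group in HFD-vehicle mice, at a mean of 4.93.

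On the high fat diet the mitotic genes had no such rise. Of the 25, 0 were called higher in limma and 1, Cenpf, was called lower (4%), where 3.65% of all genes were called higher and 2.24% lower, so the count is near the background. At an unadjusted p below 0.05 there were 4 (16%), beside 16.7% of all genes, so this count too is at the background. Of the 25 differences 3 were above 0, beside 49.8% of all genes, and the median was −0.15 against 0.00 for all genes. Cenpf, a kinetochore protein of G2 and mitosis, measured 4.66, 5.26, 4.96, 4.94 and 4.84 in HFD-vehicle mice 1 to 5 and 4.39, 4.65, 4.33, 4.11 and 4.75 in HFD-IMQ mice 1 to 5. HFD-IMQ mouse 5 lay inside the range of the controls and the other 4 below its lower end. The difference of −0.49 ± 0.14 (SE) passed narrowly (limma, adjusted p = 0.043), and 11 of 20 fits that left out 1 array lost the call: those without CD-vehicle 4 or 5, CD-IMQ 1 or 3, HFD-vehicle 2, 3, 4 or 5, or HFD-IMQ 1, 3 or 4, with adjusted p from 0.0502 to 0.139. Without CD-vehicle 3, 2 mitotic genes were called lower, Cenpf and Ttk.

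Of the 7 genes that rose with imiquimod on control chow, 0 passed on high fat diet, and their differences ran from −0.41 (Plk1) to 0.17 (Birc5). Ccnb2 differed by 0.00 ± 0.19, from 5.34, 5.58, 5.76, 5.00 and 4.88 in HFD-vehicle to 5.39, 5.40, 5.31, 5.13 and 5.34 in HFD-IMQ mice (limma, adjusted p = 0.998). Both groups had the same mean of 5.31, and the HFD-IMQ mice were closer together. Plk1 measured 5.06, 4.66, 4.64, 4.52 and 4.47 in HFD-vehicle and 4.26, 4.26, 4.43, 4.15 and 4.19 in HFD-IMQ mice. Every HFD-IMQ mouse was below every HFD-vehicle mouse, and the difference of −0.41 ± 0.15 did not pass (limma, adjusted p = 0.127). Mki67 measured 7.06, 7.96, 7.72, 7.68 and 7.62 in HFD-vehicle and 7.02, 7.14, 7.21, 6.68 and 7.16 in HFD-IMQ mice, a difference of −0.57 ± 0.22 that did not pass (limma, adjusted p = 0.156). HFD-vehicle mouse 1 was within the HFD-IMQ range and the other 4 were above it.

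The high fat diet alone, without imiquimod, was accompanied by higher mitotic genes. Comparing HFD-vehicle with CD-vehicle mice, 4 of 25 were called higher (16%) and 0 lower, where 1.22% of all genes were called higher and 0.956% lower. The 4 were Plk1, Tpx2, Ccnb2 and Kif20a. All 25 differences were above 0, beside 48.2% of all genes, with a median of 0.50 against −0.01 for all genes. At an unadjusted p below 0.05 there were 20 (80%), beside 14.7% of all genes. The 25 differences ranged from 0.24 (Foxm1) to 0.77 (Plk1). These differences rest on the same CD-vehicle mice as the imiquimod comparison on control chow, and the low values of CD-vehicle 3 enter both.

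Plk1 measured 5.06, 4.66, 4.64, 4.52 and 4.47 in HFD-vehicle mice, against 4.25, 4.23, 3.53, 3.75 and 3.75 in CD-vehicle mice. The groups did not overlap, and the difference was 0.77 ± 0.15 (limma, adjusted p = 0.00724). Tpx2, the spindle assembly factor that activates Aurora A, measured 4.57, 4.14, 3.50, 3.91 and 4.25 in CD-vehicle and 4.96, 4.85, 4.96, 4.77 and 4.53 in HFD-vehicle mice. CD-vehicle mouse 1 reached the lower end of the HFD-vehicle range. The difference was 0.74 ± 0.16 (limma, adjusted p = 0.012). Kif20a, a kinesin of the central spindle needed for cytokinesis, measured 4.40, 4.46, 3.59, 4.22 and 3.99 in CD-vehicle and 4.69, 4.85, 5.05, 4.71 and 4.56 in HFD-vehicle mice, with no overlap, a difference of 0.64 ± 0.15 (limma, adjusted p = 0.0273). Ccnb2 measured 4.91, 5.00, 3.83, 4.65 and 4.48 in CD-vehicle and 5.34, 5.58, 5.76, 5.00 and 4.88 in HFD-vehicle mice. Its ranges met, since HFD-vehicle mouse 5 lay below CD-vehicle mice 1 and 2, and the difference was 0.73 ± 0.19 (limma, adjusted p = 0.0481). Mki67 differed by 0.76 ± 0.22 and did not pass (limma, adjusted p = 0.0717).

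This count depended on single mice of both groups. Without CD-vehicle 3 it was 2 (Plk1 and Tpx2) and the median difference 0.39, and it was also 2 without CD-vehicle 5, HFD-vehicle 2 or HFD-vehicle 3. It was 8 without CD-vehicle 1, CD-vehicle 2 or HFD-vehicle 5. Without both CD-vehicle 3 and HFD-vehicle 3 it was 1, Plk1. Kif20a lost its call in 5 fits, with a limma adjusted p of 0.0939 (and a difference of 0.51) if CD-vehicle 3 was left out, 0.0703 for CD-vehicle 5, 0.0507 for HFD-vehicle 1, 0.0576 for HFD-vehicle 2 and 0.079 for HFD-vehicle 3. Ccnb2 lost it in 14 of 20 fits that left out 1 array and kept it without CD-vehicle 1 or 2, CD-IMQ 3, HFD-vehicle 4 or 5, or HFD-IMQ 4, and its difference without CD-vehicle 3 was 0.55 (limma, adjusted p = 0.149). A fit over the 10 vehicle-treated arrays alone called 0 mitotic genes, while weights for the arrays raised the count to 8.

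**Figure D3:**
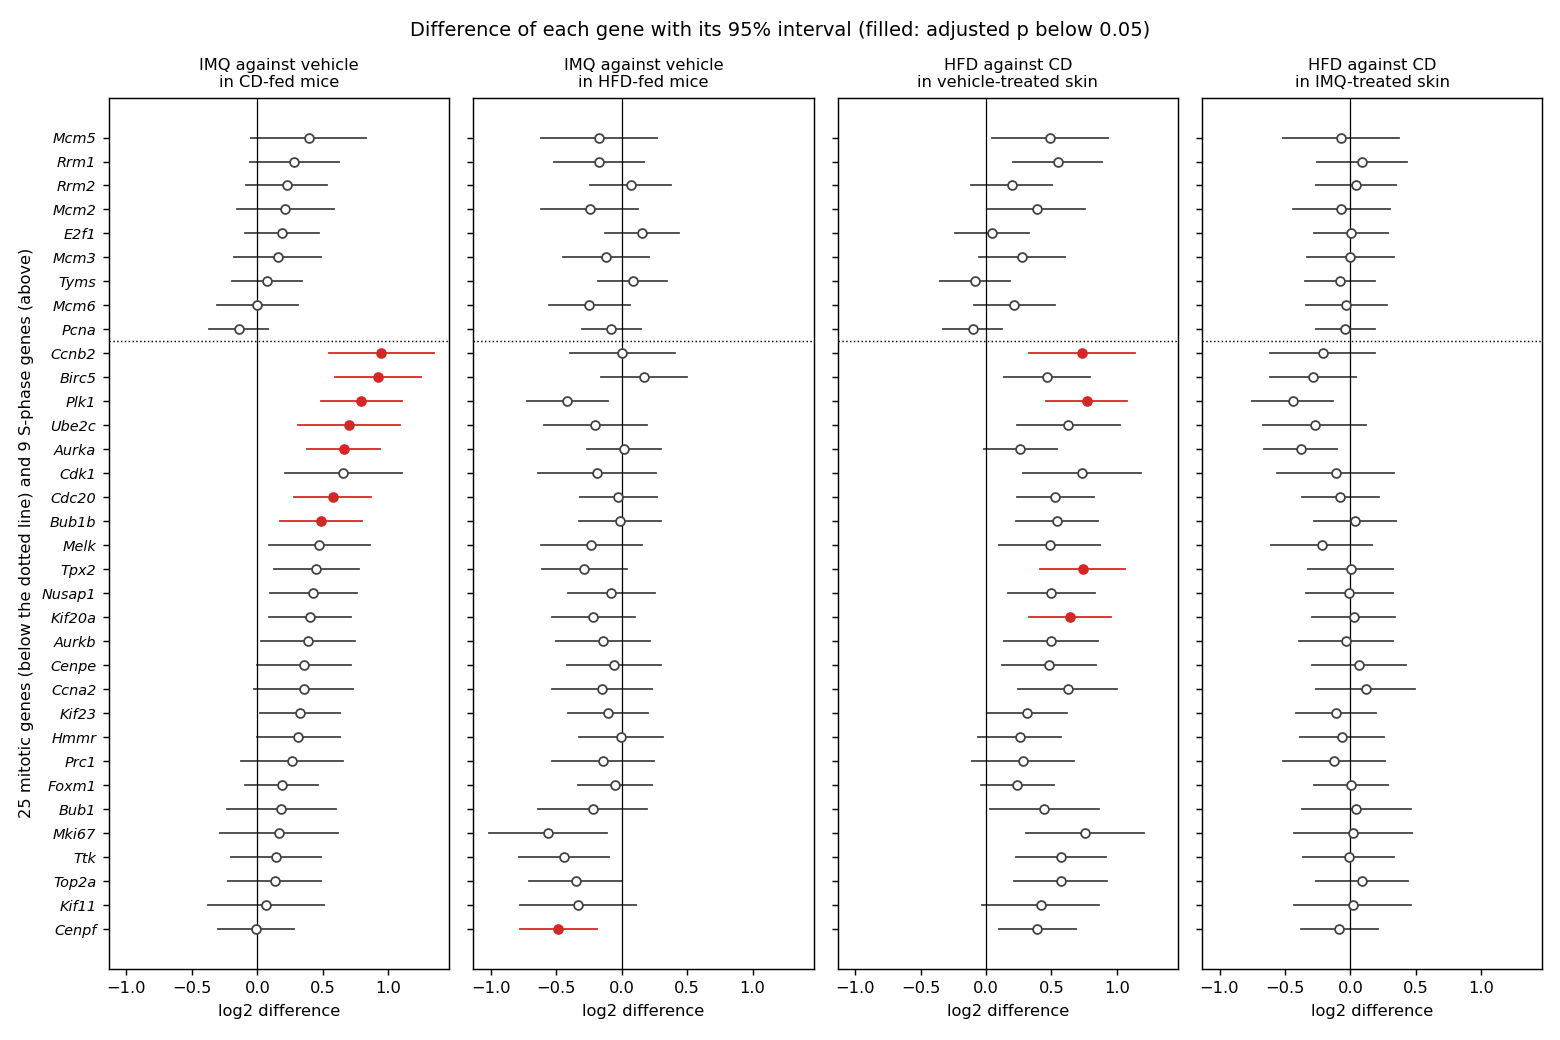
Log2 difference (horizontal axis) with its 95% interval for each of the 34 genes in 4 comparisons; filled red points passed at an adjusted p below 0.05, and the dotted line divides the 25 mitotic genes below from the 9 S-phase genes above. Mitotic genes lie mostly right of 0 with imiquimod on control chow (7 called) and with the diet in vehicle-treated skin (4 called), mostly left of 0 with imiquimod on high fat diet (1 called), and around 0 with the diet in imiquimod-treated skin (0 called).

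Once imiquimod was applied, the mitotic genes did not pass a test between the diets. HFD-IMQ and CD-IMQ mice had 0 of 25 called in either direction, where 0.0% of all genes were called in limma and 2289 genes (10.3%) had an unadjusted p below 0.05. Aurka and Plk1 were the 2 mitotic genes with an unadjusted p below 0.05. Plk1 measured 5.01, 4.36, 4.91, 4.73 and 4.48 in CD-IMQ and 4.26, 4.26, 4.43, 4.15 and 4.19 in HFD-IMQ mice, with the third HFD-IMQ mouse above the lowest CD-IMQ mouse, and differed by −0.44 ± 0.15 (limma, adjusted p = 0.351). Aurka measured 4.72, 4.24, 4.69, 4.96 and 4.89 in CD-IMQ and 4.16, 4.51, 4.40, 4.31 and 4.23 in HFD-IMQ mice and differed by −0.38 ± 0.13 (limma, adjusted p = 0.362), with overlap through CD-IMQ mouse 2. The median over the 25 genes was −0.03, and 10 were above 0, beside 49.7% of all genes. A p above the threshold does not show that the diets act alike, and the 25 differences ran from −0.44 to 0.12.

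The interaction asks whether the imiquimod effect differed between diets, and Plk1 was the only cell cycle gene of the 34 for which it passed. The Plk1 effect on high fat diet was lower than that on control chow by 1.21 ± 0.21 log2 units (a term of −1.21, limma, adjusted p = 0.00966). Over all genes 0.473% had a called positive term and 0.189% a called negative one, 105 and 42 genes, or 58 and 41 after quantile normalization and 134 and 30 after centring of the arrays. All 25 mitotic terms were negative, where 49.9% of all genes had a positive term. Of the 25, 16 had an unadjusted p below 0.05, beside 15.9% of all genes, and the median was −0.53 against 0.00 for all genes. For the other genes that rose with imiquimod on control chow the term did not pass. It was −0.94 ± 0.27 for Ccnb2 (limma, adjusted p = 0.0966), −0.75 ± 0.23 for Birc5 (0.104), −0.64 ± 0.19 for Aurka (0.102), −0.90 ± 0.27 for Ube2c (0.102), −0.61 ± 0.20 for Cdc20 (0.135) and −0.50 ± 0.21 for Bub1b (0.248). Without CD-IMQ 2 the count of called negative terms was 2 in place of 1, Plk1 and Aurka. Of the 9 S-phase terms 0 passed, 0 had an unadjusted p below 0.05, and the median was −0.25.

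Averaged over both diets, 3 of the 25 mitotic genes (12%) were called higher with imiquimod and 0 lower. Over all genes 5.48% were called higher and 7.06% lower. The 3 were Birc5 (0.55 ± 0.11, limma, adjusted p = 0.00172), Ccnb2 (0.48 ± 0.14, adjusted p = 0.0227) and Aurka (0.34 ± 0.10, adjusted p = 0.0197). Their differences on control chow were 0.92, 0.95 and 0.66 in that order. On high fat diet they were 0.17, 0.00 and 0.02, and none passed there, so these averages came mainly from control chow. The median of the averages over the 25 genes was 0.12, against 0.01 for all genes. Plk1 had an average of 0.19 ± 0.11 and did not pass (limma, adjusted p = 0.299). Of the S-phase genes 0 of 9 passed and the median was 0.06. Without CD-vehicle 3, 1 mitotic gene, Cenpf, was called lower.

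Other genes of the cell cycle were followed in lists by role, chosen with earlier results of these data known. Of 54 other mitotic genes measured, 10 were called higher and 0 lower with imiquimod on control chow (18.5%, against 3.91% of all genes called higher), with a median difference of 0.27. They included Ndc80 (0.76 ± 0.21), a kinetochore protein that binds microtubules, Cenpa (0.72 ± 0.10), the histone of the centromere, and Kif22 (0.64 ± 0.15) and Incenp (0.64 ± 0.12), a chromosome motor and the scaffold of the passenger complex. Cenpa measured 4.72, 4.75, 4.41, 4.54 and 4.45 in CD-vehicle and 5.26, 5.21, 5.34, 5.29 and 5.34 in CD-IMQ mice, with all CD-IMQ mice above all controls. On high fat diet 0 of 54 were called in either direction, beside 5.89% of all genes, and the median of the 54 was −0.07. With the diet in vehicle-treated skin 6 were called higher (11.1%, against 1.22% of all genes) and 0 lower, led by Kif2c (0.81 ± 0.18), Lmnb1 (0.72 ± 0.19), Ckap2l (0.62 ± 0.16) and Trip13 (0.59 ± 0.15). Of these single calls, that of Ndc80 was lost if CD-IMQ 3 or either of CD-vehicle 3 and 5 was left out, and that of Kif2c without CD-vehicle 3, CD-vehicle 5 or HFD-vehicle 3. Those of Ckap2l, Trip13 and Lmnb1 were lost in 8, 11 and 13 of 20 fits that left out 1 array, that without CD-vehicle 3 among them. Without CD-vehicle 3 these counts were 4 and 0 in place of 10 and 6, and without HFD-vehicle 3 the diet count was 1. The diet count was also 0 without CD-vehicle 5, 2 without CD-vehicle 4 or without HFD-vehicle 1, 2 or 4, and 3 without HFD-IMQ 2.

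Of 41 other replication genes, 0 were called higher and 2 lower with imiquimod on control chow, Orc6 (−0.39 ± 0.12) of the origin recognition complex and Cdc7 (−0.37 ± 0.12), the kinase that fires origins. These 2 are 4.88% of the list, below the 7.02% of all genes called lower, and each lost its call in 7 of 20 fits that left out 1 array. Without CD-vehicle 1, 4 or 5 or CD-IMQ 4 or 5 the counts were 0 and 0, without CD-vehicle 2 they were 2 higher and 1 lower, and without CD-IMQ 2 they were 1 and 0. On high fat diet and with the diet in vehicle-treated skin 0 of 41 were called, beside 5.89% and 2.18% of all genes. With 1 array left out there was at most 1 called lower in the former (without CD-vehicle 2 or 3 or CD-IMQ 2) and at most 2 called higher in the latter (without CD-vehicle 1 or 2, with 1 without CD-IMQ 3 or HFD-vehicle 5). The medians were 0.12 and −0.09 for imiquimod on the respective diets and 0.21 for the diet in vehicle-treated skin.

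Regulators of the entry into the cycle had a few calls. Of 15 G1 cyclins, kinases and activating factors 0 rose and 2 fell with imiquimod on control chow, Myc (−1.05 ± 0.18), a growth-promoting transcription factor, and Ccnd2 (−0.91 ± 0.17), the gene of cyclin D2. This is 13.3% of the list, against 7.02% of all genes called lower, and the median over the 15 was 0.02 with 8 above 0. On high fat diet 0 rose and 2 fell, Ccnd2 (−1.17 ± 0.17) and Ccnd1 (−0.85 ± 0.19), the gene of cyclin D1, again 13.3%, against 2.24% of all genes. These calls of Myc, Ccnd1 and Ccnd2 held in each of 20 fits that left out 1 array. With the diet in vehicle-treated skin Myc was lower by 0.93 ± 0.18 (a difference of −0.93). It was the 1 gene of 15 called (6.67%, against 0.956% of all genes called lower). Of 24 inhibitors and repressors 0 were called in either direction with imiquimod on high fat diet. There 3.65% of all genes were called higher and 2.24% lower, so this count is near the background. With imiquimod on control chow 2 rose (8.33%) and 5 fell (20.8%), where 3.91% of all genes were called higher and 7.02% lower. E2f8 (0.48 ± 0.14) and E2f4 (0.39 ± 0.11), both repressors of E2F targets, rose, and Btg2 (−2.33 ± 0.30), an antiproliferative gene, Wee1 (−0.84 ± 0.18), the kinase that holds CDK1 inactive, Cdkn1b (−0.49 ± 0.15), Rbl2 (−0.46 ± 0.13) and Rb1 (−0.40 ± 0.13) fell. The falls of Btg2 and Wee1 held in each of 20 fits that left out 1 array, and the other 5 calls were lost in 4 to 7 of them. Higher and lower counts were 0 and 2 without CD-vehicle 3, 1 and 2 without CD-vehicle 4, 2 and 2 without CD-IMQ 4 and 0 and 2 without CD-IMQ 5. The higher count was 1 without CD-vehicle 1 or CD-IMQ 1 and 0 without CD-vehicle 5 or CD-IMQ 3.

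Btg2 and Wee1 had their highest group mean in CD-vehicle mice. Btg2 measured 8.74, 8.81, 8.63, 7.61 and 6.51 in CD-vehicle, 5.89, 5.66, 5.96, 5.51 and 5.65 in CD-IMQ, 6.10, 5.96, 6.43, 5.56 and 5.93 in HFD-vehicle and 5.97, 5.89, 5.62, 5.78 and 6.27 in HFD-IMQ mice. Every CD-vehicle mouse was above every mouse of the other 3 groups. The diet difference without imiquimod was −2.06 ± 0.30 and the interaction 2.23 ± 0.42 (limma, adjusted p = 0.0154). Wee1 measured 6.63, 6.08, 6.89, 6.05 and 6.36 in CD-vehicle and 5.29, 5.50, 5.41, 5.76 and 5.63 in HFD-vehicle mice, with no overlap, a difference of −0.88 ± 0.18. Its interaction term was 1.08 ± 0.25 (limma, adjusted p = 0.046), a call lost in 13 of 20 fits that left out 1 array, with adjusted p up to 0.0905. It was kept without CD-vehicle 2 or 4, CD-IMQ 2, HFD-vehicle 4 or 5, or HFD-IMQ 3 or 4. The CD-vehicle group had the highest means of Btg2 and Wee1 and the lowest mean of the mitotic genes, and a link between these was not tested. CD-vehicle mouse 3 had 8.63 for Btg2, below mice 1 and 2, and 6.89 for Wee1, the highest value of its group.

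Markers of several cell types of the skin differed between the groups, in part the same way as the mitotic genes and in part the opposite way. The 16 measured genes of the anagen hair matrix and inner root sheath had mean log2 values of 4.08 (2.97 to 4.75) in CD-vehicle, 3.11 (2.94 to 3.22) in CD-IMQ, 6.37 (5.52 to 8.12) in HFD-vehicle and 3.13 (2.88 to 3.81) in HFD-IMQ mice. Of these, 13 were called higher and 0 lower with the diet in vehicle-treated skin, 0 higher and 13 lower with imiquimod on high fat diet, and 0 higher and 5 lower with imiquimod on control chow. Beside them, 1.22% of all genes were called higher with the diet. With imiquimod 2.24% of all genes were called lower on high fat diet and 7.02% on control chow. Near background were 7 of the 16 in either IMQ group (Krt71, Krt72, Msx2, Shh, Krt31 and Padi3 in both, with Tchh in CD-IMQ and Hoxc13 in HFD-IMQ), 4 in CD-vehicle and 1, Shh, in HFD-vehicle mice. The hair levels of the IMQ groups thus lie near 2.94, the mean of the array medians, while the lowest value of any feature was 0.18. The size of the differences of genes near background is uncertain. Without CD-vehicle 3 the 13 higher calls with the diet were 10. The diet comparison without imiquimod and the imiquimod comparison on high fat diet thus had hair follicle genes that moved the same way as the median of the mitotic genes, and the part of the hair follicle in these results was not tested. On control chow imiquimod was followed by lower hair follicle genes and higher mitotic genes.

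The wound keratins, 4 genes of activated epidermis, had mean log2 values of 4.52 (3.77 to 5.40) in CD-vehicle, 8.85 (8.26 to 9.30) in CD-IMQ, 7.02 (6.59 to 7.29) in HFD-vehicle and 9.16 (8.48 to 9.52) in HFD-IMQ mice. With imiquimod 3 of 4 were called higher on either diet, and with the diet in vehicle-treated skin 4 of 4. For these and the next lists, 3.91% of all genes were called higher and 7.02% lower with imiquimod on control chow. On high fat diet these shares were 3.65% and 2.24%, and with the diet in vehicle-treated skin 1.22% and 0.956%. The 8 basal keratinocyte genes spanned 5.56 to 6.16, 5.90 to 6.41, 5.86 to 6.55 and 5.85 to 6.42 in the same order of groups, so the ranges of their means overlapped, and CD-vehicle 3 was lowest of its group here too. Single genes went both ways: on control chow imiquimod raised Krt14 (1.95 ± 0.23) and lowered Dst (−1.06 ± 0.13) and Krt15 (−1.01 ± 0.24), and on high fat diet it raised Krt14 (0.95 ± 0.23) and Itga6 (0.52 ± 0.11) and lowered Krt15 (−1.67 ± 0.24). With the diet in vehicle-treated skin Krt14 was higher (1.02 ± 0.23), a call lost without CD-vehicle 3 or HFD-vehicle 3. The 10 suprabasal genes had means of 7.96, 9.01, 8.62 and 8.92, with CD-vehicle 3 at 6.98 as the lowest mouse. With imiquimod 7 of these 10 were called higher and 1 lower on control chow and 2 higher and 1 lower on high fat diet, and with the diet in vehicle-treated skin 4 were called higher and 0 lower. The 2 on high fat diet were 1 without HFD-vehicle 3. Neutrophil genes (10) had means of 2.86, 4.34, 3.15 and 4.52 and macrophage genes (10) of 7.98, 8.43, 7.78 and 8.62, with 4 and 5 called higher after imiquimod on control chow and 5 and 9 on high fat diet. Without CD-vehicle 3 the macrophage count on control chow was 3. Of the neutrophil genes Ly6g, Mpo, Elane, Camp and Ngp were near background in all groups. The 10 neutrophil differences with imiquimod ran from −0.11 to 6.13 on control chow (median 0.51, 9 above 0). On high fat diet they ran from −0.21 to 4.78 (median 0.80, 6 above 0), so the list mean leans on its largest differences. In the same order the mean levels were 3.55, 3.59, 3.36 and 3.63 for T and NK cell genes (9), 3.20, 3.30, 3.22 and 3.36 for B and plasma cell genes (7), 5.12, 5.09, 5.10 and 5.53 for endothelial genes (7), 9.57, 9.02, 9.60 and 9.14 for fibroblast genes (7), 8.92, 7.98, 8.64 and 8.29 for adipocyte genes (8) and 8.11, 7.82, 7.77 and 7.40 for skeletal muscle genes (8). The part of these cell types in the mitotic differences was not tested.

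**Figure D4:**
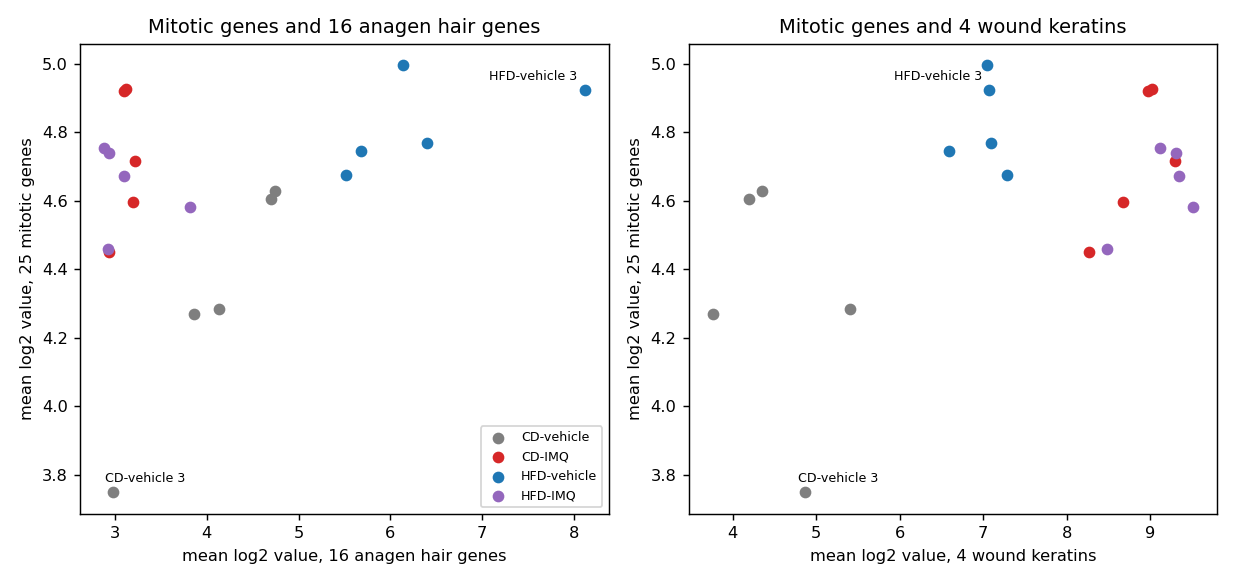
Mean log2 value of the 25 mitotic genes (vertical axis) against that of 16 anagen hair genes (left) and of 4 wound keratins (right), 1 point per mouse, coloured by group, with CD-vehicle 3 and HFD-vehicle 3 named. CD-vehicle 3 has the lowest mitotic mean (3.75) and the lowest hair level of its group (2.97), and HFD-vehicle mice lie at the highest hair levels (5.52 to 8.12).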

How the data were processed

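The deposited log2 values were made by the authors with RMA and affy, per the submitters' processing notes, which give no versions, from 300 ng of RNA per mouse. RMA corrects background, normalizes between arrays and summarizes probes, so small differences depend on that step. Of 41345 features 23521 carried 1 symbol, and the feature with the highest mean stood for each of 22180 genes.

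A model of the 4 group means, without a covariate, took all 20 arrays together (lmFit and eBayes of limma 3.58.1, run in R 4.3.3), and p was adjusted by Benjamini-Hochberg over all genes of a comparison (threshold 0.05). SE follows a difference and SD a group mean (n = 5). The members and lists were chosen with earlier results of these data known. Genes called in a comparison, up to 4 called genes per pathway list and the gene of the highest level per list are named. The replicate numbers were not used as pairs in the main fit. Of 30 same-number correlations 4 were above 0.1 (from −0.22 to 0.32). Correlations of mice with different numbers are not given beside them, so these values cannot show whether the numbers pair the mice. The number of arrays limits the precision. Alternatives were other scalings, a filter on dim genes, other feature choice, variance settings, array weights, fewer arrays, a replicate block and each array left out. Leaving out both outlying arrays was chosen after seeing the data. Scan dates were not analysed here.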

Additional observations from a re-analysis of the deposited data

Results flagged for a closer look

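Values of 5 mice were checked in each group for the 34 genes and for the S-phase and mitotic means, 144 checks in all. In these, 11 values stood apart from the other 4 by Dixon's criterion (gap over range above 0.71), where chance gives about 1 in 20. CD-vehicle 3 was low for Mcm2 (3.96), Rrm1 (5.04), Ube2c (3.37) and Ttk (3.79). Among the HFD-IMQ mice, Cdk1 was low in mouse 4 (4.49), Bub1b in mouse 4 (4.29) and Bub1 in mouse 1 (3.26), while Cenpe was high in mouse 5 (5.21). Tyms stood apart in CD-IMQ 4 (4.94) and HFD-vehicle 4 (5.46), and Pcna in HFD-vehicle 5 (7.06).

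The imiquimod effect differed between diets, by the interaction in limma, for Plk1 (−1.21, adjusted p = 0.00966), Btg2 (2.23, adjusted p = 0.0154) and Wee1 (1.08, adjusted p = 0.046).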

How the results depend on the processing

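For imiquimod on control chow the count of mitotic genes called higher was 7, within 1.5 times of that under every alternative, and 5 to 10 with 1 array left out. The count called lower on high fat diet was 1, but 0 with arrays centred on their median, 0 in the fit over the 10 arrays of that pair of groups, 2 with CD-vehicle 3 and HFD-vehicle 3 both left out, and 0 to 2 with 1 array left out. The count called higher with the diet in vehicle-treated skin was 4, but 8 with array weights, 0 with the 10 arrays alone, 1 with both outlying arrays left out, and 2 to 8 with 1 array left out. With the replicate block it was 2, Kif20a and Ccnb2 losing their calls, and the block kept the other counts within 1.5 times of the main ones. With 1 array left out the counts averaged over the diets were 3 to 4 higher and 0 to 1 lower, and 1 to 2 interaction terms were negative. The difference of Mki67 on control chow reversed from 0.17 to −0.0514 without CD-vehicle 3, also with HFD-vehicle 3 left out, and ranged from −0.0514 to 0.337 with 1 array left out. The cause of these changes was not tested, other than that fewer arrays enter some fits. Birc5 and Hmmr values near background limit the size of their differences.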
